A study of Mus musculus with 8 samples.

Results

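A block of mouse chromosome 4, from 85 to 105 Mb in build mm10, carried fewer ATAC-seq reads in Etv2 knockout cells than in wild-type cells of the same sort. The block was defined by its position, and a region of the deposited table belonged to it when it lay wholly inside the interval and had a mean of at least 10 normalized reads over the 8 libraries. The interval held 1372 regions, of which 1358 reached that mean, out of 167573 such regions in the whole table. The interval had been chosen because knockout values were lower there, so every comparison of the knockout with wild type in the block is given as a description, with no test. The regions were 401 to 1126 bp wide, with a median of 401 bp.

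The 8 libraries were made at day 4 of differentiation from embryoid bodies, the floating clumps that mouse embryonic stem cells form as they differentiate, with 2 libraries in each of 4 groups. WT DP and WT SP were wild-type cells of the A2lox.Cre stem cell line, sorted as PDGFRalpha+FLK1+ (double positive, DP) or PDGFRalpha-FLK1+ (single positive, SP). KO DP was sorted as PDGFRalpha+FLK1+ from a separate Etv2 knockout stem cell line. OE SP was sorted as PDGFRalpha-FLK1+ from the iETV2 line, which overexpressed Etv2 under doxycycline at 2 µg/ml, added at day 2.5. Each library was made from 50000 sorted live cells. The labels give no clone, passage or karyotype for the lines, and line goes with genotype, so a difference between lines and an effect of Etv2 cannot be told apart. Nothing in the labels ties the libraries of a group to separate cultures, and p-values therefore cover only the spread between libraries, which may be technical.

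ATAC-seq uses the Tn5 transposase, which inserts sequencing adapters where DNA is not covered by nucleosomes. The reads over a region follow both how open the DNA is and how many copies of that DNA the cells hold, and these cannot be told apart from the counts of the deposited regions. FLK1, encoded by Kdr, is the VEGF receptor on mesoderm that can form vessels and blood, while PDGFRalpha marks paraxial and cardiac mesoderm. Etv2 is an ETS transcription factor needed for the first endothelial and blood cells. The block holds genes of many unrelated roles. Among them are Tek, the angiopoietin receptor TIE2 of endothelial cells, the transcription factor genes Jun, Nfia and Foxd3, the cytokine kinase gene Jak1, the cell cycle inhibitor genes Cdkn2a and Cdkn2b, and the cluster of type I interferon genes.

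The libraries held 12477601 to 18853733 reads in regions, with a median of 27.0 to 42.0 reads per region. Inside Etv2 on chromosome 7, the region from 30634628 to 30635028 held 563 and 611 normalized reads (WT DP). In KO DP it held 0.840 and 0. The region that starts at 30633790 was also empty in KO DP (0 and 0, against 124 and 98.8 for WT DP). The one that starts at 30636355 went the other way, with KO DP higher (200 and 193) than WT DP (133 and 110). Reads were thus missing at part of Etv2 and not at all of its regions. The genotype label names the gene and does not state which bases were changed. A region at Pdgfra measured 580 and 657 (WT DP), 686 and 638 (KO DP), 272 and 270 (WT SP) and 108 and 129 (OE SP), lower in both SP groups as the sort would give. A region 29359 bases from Kdr, whose product was selected in all 4 sorts, measured 698 and 714 (WT DP), 524 and 544 (WT SP), 844 and 901 (KO DP) and 43.0 and 201.02 (OE SP). At this region OE SP lay below the other groups, and open chromatin at 1 site does not measure the receptor.

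The promoters of 5 genes of the block are shown because the results turn on them. Each is the first 250 bases of the annotated promoter of the gene that lies nearest to its listed region. They come from RefSeq for build GRCm38.p6, read 5′ to 3′ on the strand of the gene, with motif matches in capitals. The windows of Tek and Fggy lie partly inside the gene spans, which start at 94739086 (Tek) and 95557480 (Fggy). The listed regions of Tek and Fggy had more reads in OE SP than in WT SP. That of Dab1 had fewer, a call lost with DESeq2 (adjusted p = 0.131). Jun and Rps6 have strong promoter regions whose OE SP and WT SP values were not told apart.
Tek (chr4:94739039-94739288, + strand): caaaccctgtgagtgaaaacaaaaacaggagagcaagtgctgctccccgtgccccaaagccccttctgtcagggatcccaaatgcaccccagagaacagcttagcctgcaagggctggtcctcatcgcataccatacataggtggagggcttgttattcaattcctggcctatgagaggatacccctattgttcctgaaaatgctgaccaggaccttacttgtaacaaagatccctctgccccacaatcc
Fggy (chr4:95557257-95557506, + strand): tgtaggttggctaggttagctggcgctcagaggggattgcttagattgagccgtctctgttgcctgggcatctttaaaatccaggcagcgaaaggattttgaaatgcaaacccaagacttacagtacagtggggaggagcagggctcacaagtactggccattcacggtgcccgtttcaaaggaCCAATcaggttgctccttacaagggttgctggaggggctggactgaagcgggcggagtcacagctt
Dab1 (chr4:103619250-103619499, + strand): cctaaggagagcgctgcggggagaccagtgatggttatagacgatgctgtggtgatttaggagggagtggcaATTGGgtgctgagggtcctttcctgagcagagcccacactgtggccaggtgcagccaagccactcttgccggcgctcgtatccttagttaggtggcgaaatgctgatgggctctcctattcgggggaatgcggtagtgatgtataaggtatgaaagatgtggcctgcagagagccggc
Jun (chr4:95052223-95052472, - strand): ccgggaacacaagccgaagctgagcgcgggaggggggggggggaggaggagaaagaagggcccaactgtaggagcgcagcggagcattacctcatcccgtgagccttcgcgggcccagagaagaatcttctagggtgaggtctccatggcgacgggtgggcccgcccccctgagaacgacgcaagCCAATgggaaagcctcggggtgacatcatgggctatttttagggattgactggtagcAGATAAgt
Rps6 (chr4:86857368-86857617, - strand): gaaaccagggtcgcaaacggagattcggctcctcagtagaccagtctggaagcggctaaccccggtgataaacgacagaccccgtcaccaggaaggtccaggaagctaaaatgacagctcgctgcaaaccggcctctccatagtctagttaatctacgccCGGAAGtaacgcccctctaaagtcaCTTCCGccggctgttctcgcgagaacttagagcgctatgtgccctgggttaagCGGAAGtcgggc
The motifs searched on both strands were the ETS core CGGAAG, the AP-1 site TGANTCA, the CRE site TGACGTCA, the site AGATAA of GATA factors, the TATA box letters TATAAA and the CCAAT box, and no matches shown overlap. Rps6 had 3 matches to the ETS letters, Jun had 1 to CCAAT and 1 to AGATAA, Fggy had 1 to CCAAT, and Dab1 had 1 to CCAAT on the other strand. The Tek window had no match to the 6 motifs. Among the 80 annotated promoters that overlapped a region of the block, 15.0% held the ETS letters, against 13.6% of all 32851 promoters of the same length. The share with CCAAT was 38.75% against 33.8%, with AGATAA 8.75% against 9.99%, with TATAAA 5.0% against 12.4%, with TGACGTCA 1.25% against 1.55%, and with TGANTCA 1.25% against 6.75%. A match is a string of letters and not a measured binding site.

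The sequence table also places 5 miRNA hairpins in the block. One mature arm of each is printed because the nearest regions to 4 of the hairpins differed between OE SP and WT SP, with the seed (bases 2 to 8) in capitals.
mmu-miR-491-5p (hairpin chr4:88122040-88122125, + strand): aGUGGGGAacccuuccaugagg
mmu-miR-31-5p (hairpin chr4:88910557-88910662, - strand): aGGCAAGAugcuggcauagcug
mmu-miR-6402 (hairpin chr4:91373284-91373363, - strand): gAGCAGUUuucccaggaacccgc
mmu-miR-872-5p (hairpin chr4:94665157-94665237, + strand): aAGGUUACuuguuaguucagg
mmu-miR-101a-3p (hairpin chr4:101346945-101347027, - strand): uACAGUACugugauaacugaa
The 5 seeds all differ, so none of these arms falls in a shared seed family with another.

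In the knockout, the block took a smaller part of the library than in any other library. Its regions held 0.475% (95% exact binomial interval 0.472% to 0.479%) and 0.480% (0.476% to 0.484%) of all reads in regions in the KO DP libraries. The share was 0.739% and 0.756% (WT DP), 0.680% and 0.689% (WT SP) and 0.778% and 0.729% (OE SP). These intervals cover counting error only. Both KO DP libraries lay below the other 6, and relative to the mean of WT DP they held 63.6% and 64.2% of the share, although their depths differed (18853733 and 12477601 reads). The SP libraries lay nearer to WT DP, with 90.9% and 92.2% in WT SP and 104.0% and 97.4% in OE SP.

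**Figure D1:**
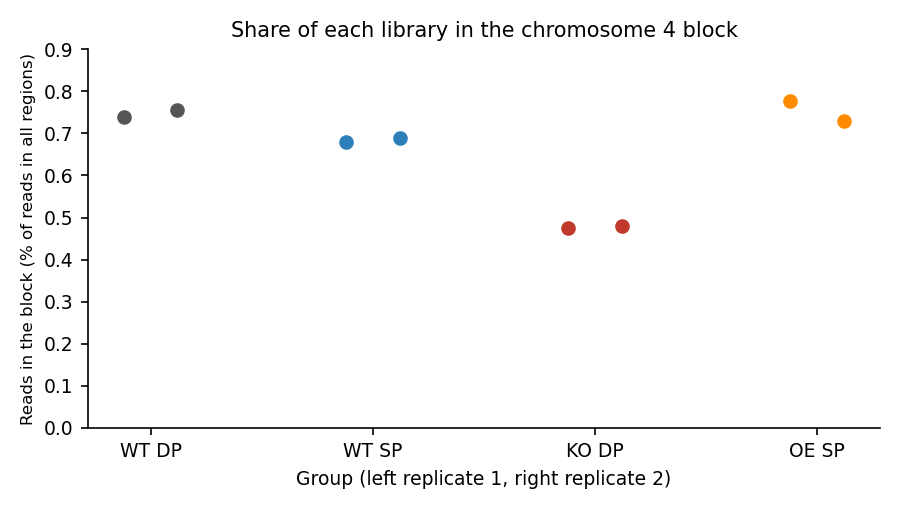
Share of each library's reads in regions that fell in the chromosome 4 block (y axis, %), for the 4 groups with replicate 1 left and replicate 2 right, 1 point per library. The KO DP points sit at 0.475% and 0.480%, and the other 6 points lie between 0.680% and 0.778%.

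The lower values were spread over most regions of the block rather than a few. In 1052 of the 1358 regions (77.5%) both KO DP libraries lay below both WT DP libraries, where 34.4% of all regions did so. Both lay above both WT DP libraries in 47 regions (3.46%), where 23.5% of all regions did so. The median difference, KO DP minus WT DP on the log2(value + 5) scale, was -0.60 in the block and -0.07 over all regions. The spread around the median was alike, with an SD of 0.48 in the block and 0.48 over all regions. In the block 1208 regions (89.0%) lay below the median of all regions. The quartiles of the block were -0.88 and -0.34. At an adjusted p below 0.05 in the limma fit described further on, 5 regions counted as higher and 275 as lower, where 1.72% and 2.21% of all regions did. As the interval was chosen on this contrast, nothing is read from these shares beyond their description.

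**Figure D2:**
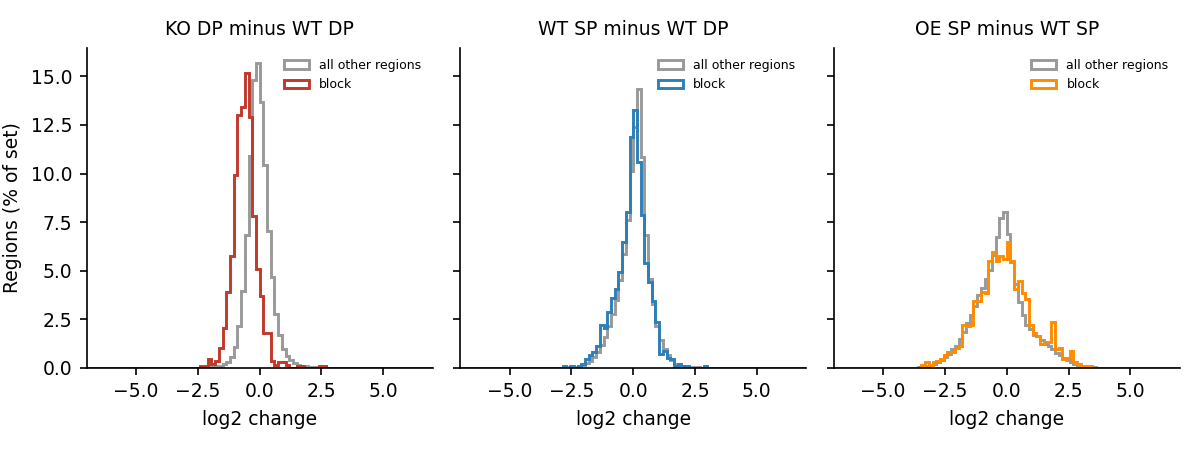
Distribution of the log2 change of regions (x axis, log2(value + 5) scale; y axis, % of the set of regions in bins of the same width) in the block (colour) and in all other regions (grey), for the 3 comparisons. In KO DP minus WT DP the block's curve is displaced to the left with a median of -0.60, while in the other comparisons the curves of block and other regions overlap over most of their range.

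The knockout's lower stretch did not reach both edges of the interval. A least-squares search along chromosome 4 for the stretch with a different mean, added after the data were seen, placed its first region at 86183617 and the end of its last at 104651940, over 18.5 Mb and 1303 regions. Each KO DP library alone gave nearly the same edges, from 86098243 to 104651940 and from 86183617 to 104652859. Both were taken against the same WT DP mean, so these edges are not independent of each other. Before the stretch lay 34 regions of the interval, whose median was -0.01 from that of all regions. After it lay 21 regions, with a median of -0.03. The 1303 regions inside had a median of -0.55 from all regions, with both KO DP libraries below both WT DP libraries in 1034 of them. The search picked the stretch for its contrast in these same values, so the medians inside and outside only describe it.

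In windows of 0.5 Mb, the median relative to all regions stood at 0.14 from 85.5 to 86.0 Mb, -0.31 in the next window and -0.54 from 86.5 to 87 Mb. At the other side it went from -0.47 in the window that starts at 104.0 Mb to -0.16 in the next and -0.02 in the first window past the interval. The left edge falls inside Adamtsl1, a gene for an ADAMTS-like matrix protein. Both KO DP libraries lay below WT DP in 21 of its 40 regions, against 52 of 54 regions of Ror1, a receptor for Wnt5a, within the stretch. Over all regions the share was 34.4%. The right edge falls inside Dab1, the adaptor of reelin signalling, with 68 of 92 regions. The next genes, C8a, C8b (subunits of complement C8) and Fyb2, an adaptor of T cell signalling, had 3 of 5, 0 of 4 and 0 of 6.

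Within the stretch the displacement was even. In 2 Mb windows between 86 and 104 Mb, the median relative to all regions ran from -0.67 to -0.42, while the windows before 86 Mb and after 104 Mb stood at -0.02 and -0.11. Of 503 windows of 5 Mb over the genome with at least 50 regions, the 4 windows of the block had the 4 lowest medians, from -0.57 to -0.50. The lowest window elsewhere stood at -0.28 and the highest at 0.42. In WT SP minus WT DP the same 4 windows ran from -0.13 to -0.08 and in OE SP minus WT SP from -0.12 to 0.35, inside the range of the other windows (-0.41 to 0.26 and -0.44 to 0.46).

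**Figure D3:**
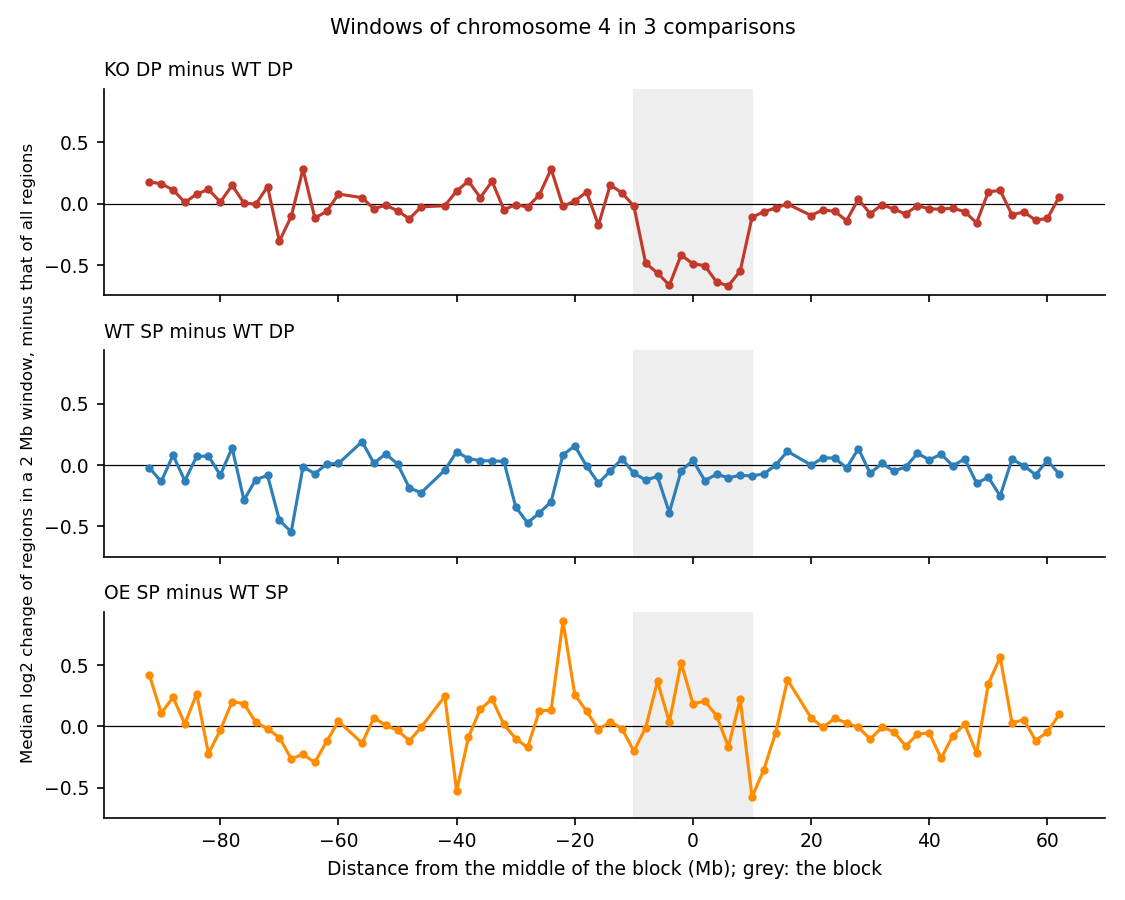
Median log2 change of regions in 2 Mb windows along chromosome 4, minus the median of all regions (y axis), against distance from the middle of the block in Mb (x axis), for KO DP minus WT DP, WT SP minus WT DP and OE SP minus WT SP, with the block in grey. The knockout trace drops to between -0.67 and -0.42 over the inner windows of the block, and the other traces show no such plateau there.

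Strong and weak regions, promoters and sites far from genes all had lower summed values. Summed over the block, KO DP had 0.611 times the normalized reads of WT DP, against 0.959 times in all other regions. Divided by the ratio in all other regions, the block's ratio was 0.637. The same quotient, taken within a class against regions of that class elsewhere, stood between 0.583 and 0.658 in each of 6 classes of mean signal, from regions with a mean of 10 to 20 (368 regions) to those of at least 320 (62 regions). By position the quotient was 0.609 over 66 promoter regions, 0.626 over 733 regions inside genes, 0.651 over 359 regions between genes and 0.637 over 173 regions with no gene within 100 kb. At promoters, both KO DP libraries lay below both WT DP libraries in 60 of 66 regions, against 52.4% of promoter regions elsewhere. Among the 130 regions of the block with a mean of at least 160 reads, where counting error is least, the median ratio of KO DP to WT DP was 0.574 and the quartiles were 0.502 and 0.678. Outside the block, 22884 regions of that strength had a median ratio of 0.923 and quartiles of 0.819 and 1.05.

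**Figure D4:**
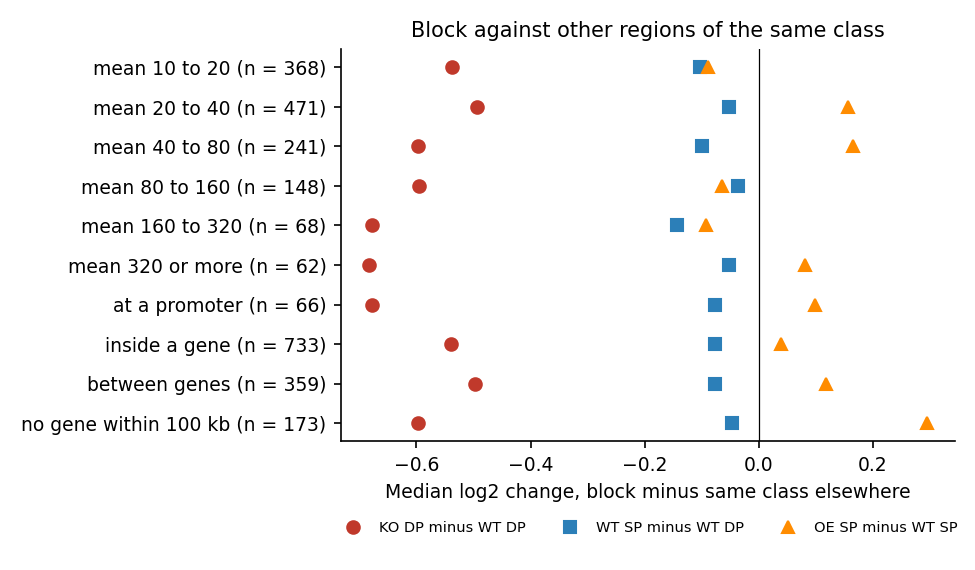
Median log2 change of block regions minus the median of regions of the same class elsewhere (x axis), for 6 classes of mean normalized reads and 4 positions (y axis, with the number of block regions), in 3 comparisons. The knockout points lie between -0.68 and -0.49 in every class drawn, the WT SP points between -0.14 and -0.04, and the OE SP points between -0.09 and 0.29.

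The knockout's values were lower at most genes of the block. Of 117 protein-coding genes that overlap the block, 92 had at least 1 region nearest to them, and 57 had at least 5. The median region lay below that of all regions in 56 of the 57, where 50.7% of the 9462 genes with as many regions did so. A list of 60 genes along the block gave 56 with a region, each taken by its strongest region within 1 kb of a gene end or, with none there, its strongest region. Both KO DP libraries lay below both WT DP libraries in 53 of them and above in 0. Outside the block both lay below in 50.0% of gene-end regions and in 49.9% of regions with a mean of at least 320. The median difference of the 56 was -0.83 and they ran from -1.48 at Atg4c, an autophagy protease gene, to 0.20 at C8b. The 3 without full separation were Cntln, Tek and C8b.

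Genes of growth and protein synthesis are represented by Rps6, a protein of the small ribosomal subunit. Its promoter region (86857221 to 86857621), which overlaps the sequence with 3 ETS matches, measured 774 and 843 normalized reads (WT DP), 983 and 1005 (WT SP), 443 and 425 (KO DP) and 857 and 1099.7 (OE SP). Both KO DP libraries lay below the other 6. The promoter of Rraga, a GTPase that signals amino acids to mTORC1, gave a difference of -0.83, and that of Haus6, a subunit of the spindle's augmin complex, -0.66.

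Among transcription factors, the promoter of Jun, a subunit of AP-1, measured 1762 and 1804 (WT DP), 2168 and 2003 (WT SP), 1163 and 1125 (KO DP) and 1981 and 2546 (OE SP), with both KO DP libraries lowest. A region at Foxd3, a factor of pluripotent cells and neural crest, measured 268 and 252 (WT DP), 315 and 241 (WT SP), 113 and 114 (KO DP) and 317 and 263 (OE SP), again with KO DP below all others. Of the 72 regions assigned to Nfia, a nuclear factor I gene of glia and other lineages, both KO DP libraries lay below WT DP in 59 and above in 0. The shares were 77.5% below and 3.46% above in the block, and 34.4% and 23.5% over all regions.

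For the cell cycle inhibitors, the promoter region of Cdkn2a, which encodes p16INK4a and p19ARF, measured 546 and 549 (WT DP), 745 and 641 (WT SP), 340.1 and 364 (KO DP) and 562 and 635 (OE SP). All 9 of its regions and 7 of 8 of Cdkn2b, which encodes p15INK4b, had both KO DP libraries below WT DP, as did 77.5% of the block's regions and 34.4% of all regions. Reads were thus present at both genes in every library.

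Among signalling genes, the promoter of Jak1, the kinase of interferon and other cytokine receptors, measured 961 and 926 (WT DP), 1101 and 1056 (WT SP), 526 and 473 (KO DP) and 960.0 and 1134 (OE SP). The promoter of Ror1 measured 586 and 524 (WT DP), 650.4 and 628 (WT SP), 306 and 286 (KO DP) and 443 and 535 (OE SP). In both, KO DP lay below the other 6 libraries. The 12 type I interferon genes of the Ifn family that had a region held 32 regions between them. These genes form a family of related genes, as do the 7 Cyp2j genes with 25 regions. How reads were shared among any similar copies is uncertain.

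Some single regions departed from the displacement. At 95955805 to 95956205, near Hook1, an adaptor for microtubule transport, the WT DP libraries measured 9.71 and 13.5, WT SP 7.12 and 10.9, KO DP 94.0 and 101 and OE SP 11.7 and 22.3, so both KO DP libraries stood above all others. A region with no gene within 100 kb at 89875687 measured 5.82 and 0.898 in WT DP and 44.5 and 39.2 in KO DP. A region inside Sh3gl2, which encodes endophilin A1, at 85347863 measured 12.6 and 22.5 in WT DP and 63.8 and 58.2 in KO DP, outside the lower stretch. In the other direction, a region downstream of Dmrta1, a DM domain gene, at 89695627 measured 73.8 and 56.6 in WT DP and 12.6 and 11.9 in KO DP, and an intergenic region at 94184888 measured 40.8 and 43.1 against 2.52 and 8.32.

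At the limits of the rule, the weakest region included had a mean of 10.1 and a difference of -0.71, and the strongest left out had a mean of 9.92 and a difference of -0.24. The regions on either side of the left limit differed by -0.13 (outside) and -0.10 (inside), and those at the right limit by 0.87 (inside) and -0.44 (outside).

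WT SP was compared with WT DP to ask how the block differs between FLK1+ cells without and with PDGFRalpha in 1 line. This contrast was not used to choose the block, though it shares the WT DP libraries with the knockout comparison. With limma on log2(value + 5) and Benjamini-Hochberg adjustment over all 167573 regions, 78 of the 1358 regions rose (5.74%) and 157 fell (11.6%) in WT SP at an adjusted p below 0.05. Over all regions 6.2% rose and 8.12% fell. The median of the block was 0.00, against 0.11 over all regions. Scaled instead to the 10000 highest regions, 41 rose and 233 fell, with the median of all regions at -0.11.

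These counts depended on single libraries. Rises and falls numbered 19 and 47 without WT DP replicate 1, 23 and 41 without WT DP replicate 2, then 17 and 55 without WT SP replicate 1, and 16 and 54 without WT SP replicate 2. They were 49 and 113 with KO DP replicate 1 left out, 49 and 114 with KO DP replicate 2 left out, 216 and 267 with OE SP replicate 1 left out and 211 and 272 with OE SP replicate 2 left out, libraries that enter this comparison only through the shared estimate of the spread.

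The rises in WT SP included regions of Tek. The Tek promoter region (94739199 to 94739599), which overlaps the printed sequence, measured 20.4 and 31.4 (WT DP), 112 and 117 (WT SP), 18.5 and 21.4 (KO DP) and 627 and 947 (OE SP). WT SP did not overlap WT DP (log2 change 1.97, SE 0.24, limma adjusted p = 0.000559), and KO DP overlapped WT DP. Of the 18 regions assigned to Tek, 6 rose and 0 fell, where 6.2% and 8.12% of all regions did. The counts at Tek became 4 and 0 after median-of-ratios rescaling and 3 and 0 after rescaling on the 10000 highest regions. The rises numbered 1 without WT DP replicate 1 or either WT SP library and 2 without the second WT DP library. Leaving out a KO DP library gave 3 (replicate 1) and 4 (replicate 2).

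The rise of greatest size lay at 95276218 to 95276618, with no gene within 100 kb. It measured 7.77 and 8.08 (WT DP), 97.7 and 85.3 (WT SP), 5.88 and 7.13 (KO DP) and 376 and 539 (OE SP), so each SP library stood above each DP library (log2 change 2.90, SE 0.23, limma adjusted p = 0.000117). Rises inside Nfia at 97640364 (2.14) and in Ube2u, a ubiquitin-conjugating enzyme gene, at 100548099 (1.84) followed. Between them in size was a rise at 95466653 (1.93), assigned to Fggy, a carbohydrate kinase gene that starts at 95557480.

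Of the 157 falls in WT SP, 1 was at a promoter. The region of greatest fall, 50444 bases from Usp1, the deubiquitinase of FANCD2, at 98872966 to 98873366, measured 161 and 166 (WT DP), 18.3 and 20.8 (WT SP), 71.4 and 78.4 (KO DP) and 12.4 and 7.88 (OE SP) (log2 change -2.78, SE 0.22, limma adjusted p = 0.000119). Here WT SP and KO DP both lay below WT DP, and WT SP was the lower of the pair. A region near Oma1, a mitochondrial protease gene, at 103410294 (-2.47) and an intergenic region at 91080804 (-2.14) fell as well.

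At Foxd3, 5 of 15 regions fell and 0 rose, where 8.12% and 6.2% of all regions did. The falls at Foxd3 numbered 2 on leaving out any single WT DP, WT SP or KO DP library. A region 66062 bases from the gene at 99589837 to 99590237 measured 123 and 122 (WT DP), 29.5 and 22.8 (WT SP), 179 and 149 (KO DP) and 13.9 and 10.5 (OE SP) (log2 change -2.04, SE 0.22, limma adjusted p = 0.000301). KO DP stood above WT DP at this region, one of the 47 in the block where both libraries did. A region at 89383205, assigned to Cdkn2b, whose span ends at 89311032, fell by 2.03 on the log2 scale. Meanwhile 1 other region assigned to the gene rose, a call lost after both rescalings, with DESeq2 and on leaving out any WT DP or WT SP library.

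Of the 66 promoter regions in the block, 2 rose and 1 fell in WT SP (3.03% and 1.52%), where 2.90% and 1.44% of all promoter regions did. Among the 56 genes of the list, 2 regions rose, at Tek and in Ift74, an intraflagellar transport gene next to it (0.95). A region in Efcab7, a gene of cilium signalling, fell (-0.90), as did one in Sgip1, an endocytic adaptor gene (-0.88). The calls in Ift74, Efcab7 and Sgip1 were lost on leaving out any WT DP or WT SP library, and the Tek call was kept under all 17 alternatives.

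OE SP was compared with WT SP to ask what differs when Etv2 is induced. In the block 293 regions rose (21.6%) and 403 fell (29.7%), with 16.6% and 31.9% over all regions (limma, adjusted p below 0.05). The split depended on scaling. After median-of-ratios rescaling 399 rose and 316 fell, and with edgeR on the recovered reads 418 rose and 315 fell. The median of all regions moved from -0.22 to 0.00 under median-of-ratios rescaling. The block's median, -0.15 as deposited, lay 0.07 above that of all regions both before and after. That offset was 0.01 without OE SP replicate 1 and 0.16 without OE SP replicate 2. This comparison shares the WT SP libraries with the one above.

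The Tek promoter had the clearest rise among promoters of the list, and every OE SP library lay above every other library there (log2 change 2.70, SE 0.24, limma adjusted p = 9.58e-06). Over all regions 16.6% rose and 31.9% fell in OE SP. Of the 18 regions of Tek, 8 rose and 4 fell, or 10 and 1 after median-of-ratios rescaling. The counts were 7 and 0 without WT SP replicate 1 or replicate 2, 10 and 2 without OE SP replicate 1, 8 and 0 with DESeq2 and 8 and 2 with only these groups in the fit. A region inside the gene at 94746282 measured 47.6 and 43.1 (WT DP), 87.5 and 107 (WT SP), 45.3 and 46.4 (KO DP) and 292 and 481 (OE SP) (1.90). A region at 94830015 measured 9.71 and 8.98 (WT DP), 18.3 and 13.9 (WT SP), 5.88 and 5.94 (KO DP) and 77.3 and 152 (OE SP) (2.44). Both rose in OE SP, calls kept under all 17 alternatives.

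**Figure D5:**
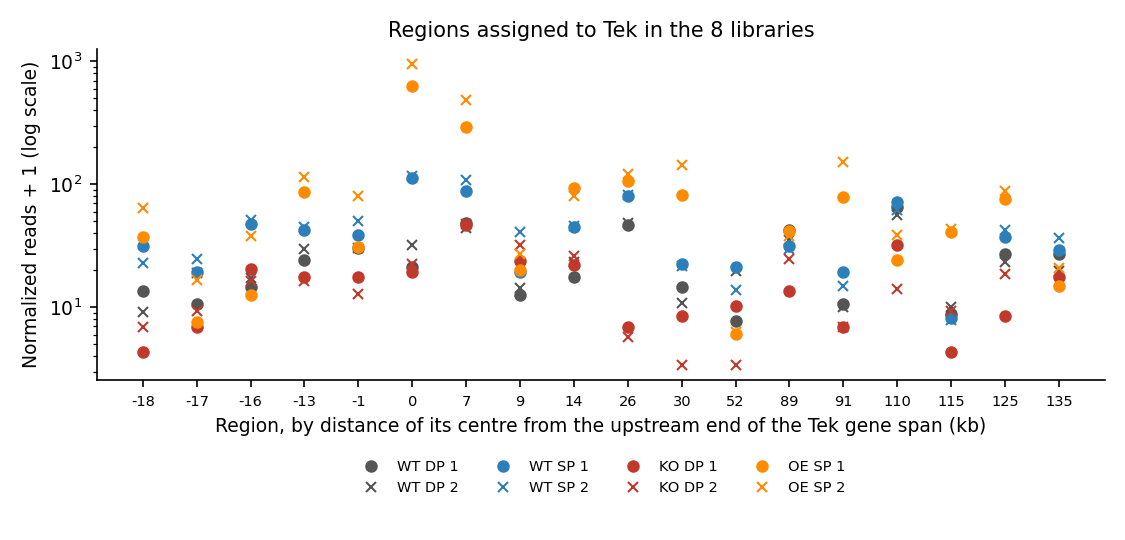
Normalized reads + 1 (y axis, log scale) in each of the 18 regions assigned to Tek, placed in order of position and labelled with the distance of the region's centre from the upstream end of the gene (x axis, kb), 1 mark per library. At distance 0 the OE SP marks stand at 627 and 947 and the WT SP marks at 112 and 117, above the DP groups, while at other regions the groups mix.

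Rises of greatest size lay inside genes or between them. The first was inside Adamtsl1 at 85591034 to 85591434, with 7.77 and 7.19 (WT DP), 14.2 and 16.9 (WT SP), 8.40 and 5.94 (KO DP) and 190.4 and 217 (OE SP) (log2 change 3.34, SE 0.24, limma adjusted p = 4.53e-06). In it OE SP stood above the other 6 libraries. Regions inside Nfia at 97657526 (3.19), inside Ift74 at 94683330 (3.07), inside Adamtsl1 at 85560435 (2.93), inside Acer2, a ceramidase gene, at 86902360 (2.86) and at 95353989 with no gene within 100 kb (2.94) rose as well.

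Falls of greatest size were of like magnitude. The first, at 101344723 to 101345123, has Ak4, a mitochondrial adenylate kinase gene that starts at 101416478, as its nearest protein-coding gene. It measured 229 and 289 (WT DP), 309 and 282 (WT SP), 154 and 144 (KO DP) and 10.9 and 43.4 (OE SP) (log2 change -3.43, SE 0.37, limma adjusted p = 2.68e-05). It lies 1.82 kb from the hairpin of Mir101a, and OE SP was below the other 6 libraries. Regions in Pgm1, which encodes phosphoglucomutase, at 99981217 (-3.41) and 99983636 (-3.27), in Fggy at 95788187 (-3.27), near Dab1 at 104745987 (-3.18) and near Jak1 at 101289318 (-3.18) fell too. In the first Pgm1 region the OE SP libraries were far apart, at 5.84 and 68.3, against 323 and 269 in WT SP. The regions named here for the size of their rise or fall in the SP and OE comparisons kept their call under every alternative.

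Near the other miRNAs, the closest regions gave OE SP changes of 1.74 at 0.93 kb from Mir491 (adjusted p = 0.00155), 1.10 at 4.50 kb from Mir872 (adjusted p = 0.00184), -0.52 at 1.02 kb from Mir6402 (adjusted p = 0.0112) and 0.04 at 27.5 kb from Mir31 (adjusted p = 0.876), by limma. The region near Mir491 measured 7.12 and 2.97 in WT SP and 32.8 and 23.6 in OE SP, and that near Mir31 326 and 252 against 314 and 279. The OE SP libraries lay above WT SP at the first and between its values at the second. At the region nearest to each of the 5 hairpins both KO DP libraries lay below both WT DP libraries, as in 77.5% of the block's regions and 34.4% of all regions. The call near Mir6402 was lost after median-of-ratios rescaling, without WT SP replicate 1, with only these groups in the fit, with edgeR and with DESeq2. The table holds no miRNA levels.

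Rises and falls were also counted in genes with many regions. Over all regions 6.2% rose and 8.12% fell in WT SP, and 16.6% rose and 31.9% fell in OE SP. Of the 72 regions of Nfia, 10 rose and 5 fell in WT SP (8 and 8 after median-of-ratios rescaling, 5 and 11 after rescaling on the 10000 highest regions). The WT SP counts at Nfia were 1 and 0 on leaving out any WT DP or WT SP library, 5 and 3 without either KO DP library and 22 and 12 without either OE SP library. In OE SP 19 rose and 23 fell (26 and 21 after median-of-ratios rescaling). At Jun, 4 of 21 regions rose and 2 fell in WT SP, and 7 rose and 8 fell in OE SP (8 and 6). At Jak1, 4 of 32 rose and 0 fell in WT SP, and 6 rose and 16 fell in OE SP (9 and 16). In WT SP the counts at Jun were 1 and 1 without WT DP replicate 1 or either WT SP library, 1 and 0 without WT DP replicate 2, 4 and 1 without either KO DP library and 11 and 2 without either OE SP library. In OE SP they were 5 and 4 without WT SP replicate 2. The rises at Jak1 in WT SP numbered 2 without WT DP replicate 1, 1 when the second WT DP library or either WT SP library was left out, and 12 without either OE SP library. Thus the balance at Nfia and Jun changed with the scaling.

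At the block's 66 promoter regions, 11 rose and 14 fell in OE SP (16.7% and 21.2%). Of all promoter regions 6.60% rose and 18.1% fell, and of all regions 16.6% and 31.9%. Among the 56 genes of the list, 4 regions rose and 11 fell in OE SP. Beside Tek, the region in Ift74 rose from 28.5 and 23.8 to 107 and 101 (1.81) and the promoter of Fggy from 509.9 and 488 to 765 and 926 (0.75). The promoter of Dmrta1 rose as well (0.48), a call lost without WT SP replicate 1 or replicate 2 and with only these 2 groups in the fit. Regions in C8a (-1.41) and C8b (-1.01) fell, and the promoter of Dab1 fell from 400.0 and 424 to 268 and 233 (-0.71). With DESeq2 the calls at C8b (adjusted p = 0.0503) and Dab1 (adjusted p = 0.131) were lost, while that at C8a was kept under all 17 alternatives.

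The other 8 falls were -0.90 to -0.42, at Sh3gl2, Patj, Raver2, Dnajc6, Ak4, Pde4b, Sgip1 and Slc35d1, and all 8 were lost after median-of-ratios rescaling. That rescaling gave 19 rises and 3 falls in the list, so the balance of the list turned with the scaling. The list had 3 rises and 3 falls without WT SP replicate 1, 3 and 6 without WT SP replicate 2, 9 and 13 without OE SP replicate 1 and 5 and 20 without OE SP replicate 2. At the promoters of Jun (0.11, adjusted p = 0.563), Rps6 (-0.03, adjusted p = 0.873), Jak1 (-0.05, adjusted p = 0.808) and Cdkn2a (-0.21, adjusted p = 0.265) no difference was called by limma.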

How the data were processed

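The submitters' processing notes list Bowtie2, MACS2, DiffBind 3.14.1 and build mm10. The role of each, the scaling of the libraries and the handling of duplicates and of the Tn5 offset are not stated there. The deposited table gives a signal, normalized reads per region, named by its file as normalized counts. In all 8 libraries 100% of values were whole multiples of a library step, at a tolerance of 0.01 reads, so reads could be recovered. A different scaling shifts all regions of a library together, so it can turn rises into falls but leaves the place of the block as it is.

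The fit was made with limma 3.58.1 (R 4.3.3) on log2(value + 5), which understates changes of low regions, for regions with a mean of at least 10, with 4 group means and an empirical Bayes trend, and two-sided p-values adjusted by the Benjamini-Hochberg method over all 167573 regions. It was tested on simulated data. Alternatives were 2 rescalings, a pseudocount of 1, other filters, leaving out each library, a replicate block, a fit of the compared groups, edgeR 4.0.16 and DESeq2 1.42.0 on recovered reads, and other edges of the block. Regions were assigned to the closest protein-coding gene within 100 kb, and sequences came from RefSeq tables of GRCm38.p6. Named regions were the 6 of greatest change in each direction that passed the call and whose groups did not overlap, the region of each listed gene, and all regions of 7 genes. For the knockout, they were the 6 of greatest difference in each direction whose groups did not overlap. The block, its members and the gene lists were chosen with earlier results of these data known. One region that the rule names is not reported here.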

Additional observations from a re-analysis of the deposited data

How the results depend on the processing

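The block's median in the knockout stayed below that of all regions under every alternative run. The OE SP median of the block went from -0.15 as deposited to 0.07 after median-of-ratios rescaling, a change of sign. Relative to all regions the knockout median was -0.53 as reported, -0.63 with a pseudocount of 1, -0.57 with a mean of at least 30, -0.65 with edgeR, -0.65 with DESeq2, -0.65 as a ratio of summed values, -0.65 as a ratio of shares, -0.61 at gene ends, -0.34 with edges at 80 and 110 Mb, and -0.57 to -0.52 on leaving out 1 library. The wider edges take in regions outside the lower stretch.

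Knockout calls, a description here, numbered 5 higher and 275 lower. Higher calls were 1 with a mean of at least 30, 24 with only the compared groups and 2 to 22 on leaving out 1 library, and lower calls were 678 with only the compared groups, 133 with DESeq2 and 16 to 690 on leaving out 1 library. In WT SP, rises were 41 after rescaling on the 10000 highest regions, 237 with only the compared groups, 32 with DESeq2 and 16 to 216 on leaving out 1 library. Falls were 87 with a mean of at least 30, 282 with only the compared groups, 102 with DESeq2 and 41 to 272 on leaving out 1 library. In OE SP, rises were 135 with a mean of at least 30 and 214 to 332 on leaving out 1 library, and falls were 258 with a mean of at least 30, 220 with DESeq2 and 283 to 452 on leaving out 1 library. The higher minimum tests only 682 regions of the block, and the cause of the other shifts was not tested. Deviations of same-numbered replicates from their group means had correlations of -0.004 to 0.056 over regions. Counting error enters these deviations, so the correlations cannot decide whether the numbers pair the samples. With the replicate block the knockout median stayed at -0.53, WT SP had 73 rises and 153 falls, OE SP 292 and 399, and KO DP 4 and 259. With 2 libraries per group and a median of 27.0 to 42.0 reads per region, small changes of single weak regions could not be resolved.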
